A study of Rattus norvegicus with 22 samples.

Results

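Ion channel and neurotransmitter receptor genes were examined in the cortex of rats 24 h after a penetrating ballistic brain injury (PBBI). The genes were those whose symbol begins with one of a set of channel and receptor prefixes, such as Kcn for potassium channels, Gabr for GABA-A receptor subunits, Chrn for nicotinic receptors and Gpr for receptors named by their G-protein coupling. The deposited counts carry no gene names, so symbols came from a supplementary table of the study that pairs identifiers with names and was used only for that. It names 1774 of the 32545 gene identifiers, and 34 of those matched. The table names mostly genes the study called in the injured hemisphere, so its readout chose these 34 genes, and the ipsilateral values below are a description with no test. Channel and receptor genes it does not name were not analysed here. Among these are the Clcn, Hcn, Grm, Adr and Drd families, for which the table held no symbol that matched.

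The study compared 6 PBBI and 5 sham rats, all adult male Sprague-Daley (the spelling in the sample labels), and cortical tissue from each hemisphere of each rat gave 22 libraries in 4 groups. All rats carried implanted EEG and EMG electrodes. PBBI rats received a craniectomy over the right frontal pole and a probe whose elastic balloon was briefly inflated inside the brain, which leaves a cavity. Sham rats went through the same steps without the probe, so they share the craniectomy and the implants with the injured rats. The ipsilateral hemisphere is the right, injured or operated side. The cortical tissue was bulk RNA, in which fewer cells of a type and less RNA per cell cannot be told apart.

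Ion channels set the membrane potential and carry the currents of neurons, glia and immune cells, and potassium channels return cells towards rest. Cys-loop receptors are ligand-gated channels assembled from subunits: GABA-A and glycine receptors pass chloride, and nicotinic receptors pass cations. G-protein coupled receptors for purines, protons and lipids are abundant on microglia and other myeloid cells, while voltage-gated channels and muscarinic receptors are typical of cortical neurons. Not all of the genes code for a channel or a neurotransmitter receptor. Kcne4 and Kcnip4 code for partners of potassium channels, Cacnb3 for an auxiliary calcium channel subunit, Cacng3 for an auxiliary subunit of AMPA receptors and Grid2ip for a scaffold. The 10 genes with the prefixes Gpr and Gprc5 code for receptors of lipids, protons or chemokines, or for receptors with no agreed ligand.

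Promoter sequences are shown for 5 of the 6 genes with an unadjusted p under 0.05 for PBBI against sham in the contralateral hemisphere. This is the only comparison whose samples did not choose the genes, although the rats are the same. The other is Kcnn4, which matched no promoter. Of the 34 genes, 24 matched a symbol in RefSeq promoters of the assembly GRCr8, and the 250 bases before the start of each were used. The capitals mark the GC box GGGCGG on either strand, a short motif of many promoters without a TATA box. This motif, the TATA motif TATAAA and the AP-1 motif TGANTCA were chosen after the values of the genes had been seen.
P2rx1, chr10:58116857-58117106, plus strand: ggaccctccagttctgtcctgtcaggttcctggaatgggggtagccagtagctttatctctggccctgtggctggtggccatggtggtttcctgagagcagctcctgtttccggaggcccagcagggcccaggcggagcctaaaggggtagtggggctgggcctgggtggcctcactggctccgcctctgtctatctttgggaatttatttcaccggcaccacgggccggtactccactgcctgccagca
Gpr132, chr6:137757026-137757275, minus strand: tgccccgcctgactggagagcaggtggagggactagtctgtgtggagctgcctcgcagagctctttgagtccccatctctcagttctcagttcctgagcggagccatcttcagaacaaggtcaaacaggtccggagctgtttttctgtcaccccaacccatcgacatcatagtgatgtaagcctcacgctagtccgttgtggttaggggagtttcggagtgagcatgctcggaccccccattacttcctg
Gpr182, chr7:65474111-65474360, minus strand: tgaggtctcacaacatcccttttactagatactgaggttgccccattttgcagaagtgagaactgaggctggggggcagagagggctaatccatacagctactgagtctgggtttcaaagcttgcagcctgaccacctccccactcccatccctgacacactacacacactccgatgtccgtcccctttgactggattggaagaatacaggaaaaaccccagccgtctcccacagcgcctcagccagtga
Chrm4, chr3:98348830-98349079, plus strand: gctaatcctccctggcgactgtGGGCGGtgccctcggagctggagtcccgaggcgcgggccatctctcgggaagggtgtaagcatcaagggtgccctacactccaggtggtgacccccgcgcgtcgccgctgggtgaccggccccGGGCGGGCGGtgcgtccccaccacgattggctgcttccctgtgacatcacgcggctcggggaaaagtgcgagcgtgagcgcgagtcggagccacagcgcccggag
Kcnc1, chr1:106038997-106039246, plus strand: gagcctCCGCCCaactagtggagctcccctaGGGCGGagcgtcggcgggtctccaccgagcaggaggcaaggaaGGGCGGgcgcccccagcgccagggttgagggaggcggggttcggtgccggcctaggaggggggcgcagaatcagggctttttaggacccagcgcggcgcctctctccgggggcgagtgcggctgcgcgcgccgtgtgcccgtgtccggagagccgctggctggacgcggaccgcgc
Chrm4 and Kcnc1, which were lower in PBBI rats, each had 3 GC boxes. P2rx1, Gpr132 and Gpr182, which were higher, had none. Over all genes with a promoter, the GC box was found in 9 of the 10 that were lower in the ipsilateral hemisphere (90%) and in 5 of the 13 that were higher (38.5%). It was found in 30.5% of all 33469 promoters of the same length and in 38.9% of the promoters of protein-coding genes. Kcng4 was the lower gene without it. Median GC content was 66% in the lower genes and 55.6% in the higher genes, against 51.2% over all promoters. TATAAA, read on both strands, was present in Gpr65 and Gpr83 among the higher genes and in 12.9% of all promoters. TGANTCA was present only in Grid2ip among the genes tested, and in 6.34% of all promoters. A match is a description of letters, not of a bound site.

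Counts per library were between 42085341 and 63412426, and values are given as CPM, counts scaled to library size, after TMM normalisation. The ipsilateral library of PBBI rat 85 stood apart from the others. On the first principal component over the ipsilateral side (50.0% of variance) it had a score of 200.7, and it correlated with the remaining PBBI libraries at a mean r of 0.824, against 0.928 to 0.940 for each of those. The summed level of 9 myeloid markers was 554 to 1359 CPM in ipsilateral PBBI and 216 to 446 CPM in ipsilateral sham samples, and 6 of the 9 were past the threshold, all higher. Tmem119, a marker of microglia in that list, was not past it and had a log2 fold change of -0.92, with 10.4 to 27.8 CPM in ipsilateral PBBI and 26.5 to 41.7 CPM in ipsilateral sham samples. Of 4 astrocyte markers, Gfap and Vim were higher past the threshold and Aldh1l1 was lower past it (log2 fold change -0.96), while Gjb6 had -1.53 and did not pass. Their sum, which is mostly Gfap, was 2152 to 7434 CPM against 451 to 1040 CPM ipsilaterally. The endothelial marker Vwf was also higher past the threshold. Of the neutrophil markers S100a8, S100a9, Cxcr1 and Cxcr2, only the first pair had enough counts to be tested, and neither passed, with summed levels of 5.04 to 162 CPM in PBBI and 3.11 to 44.8 CPM in sham. Opalin of oligodendrocytes and Lamp5, the only neuronal marker with a name, were not past the threshold. Lamp5 was at 30.0 to 112 CPM in ipsilateral PBBI and at 87.5 to 257 CPM in ipsilateral sham samples. The part of these cell types in the values below was not tested.

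In the ipsilateral hemisphere, 31 of the 34 genes had enough counts to enter the fit, and 19 were higher and 12 lower in PBBI rats. The median log2 fold change was 1.33, against -0.02 over all 16104 genes. All 6 tested lipid, proton and orphan receptors, both purinergic receptors, 4 of 5 Cys-loop receptor subunits, the epithelial sodium channel subunit and the anoctamin were higher. Lower were 5 of 7 potassium channel pore subunits, both calcium channel family genes and the glutamate receptor scaffold. The other 3 classes held 1 higher and 1 lower gene each: Kcne4 and Kcnip4 among the potassium channel partners, Htr2b and Chrm4 among the amine and muscarinic receptors, and Gprc5a and Gprc5b among the tested class C orphan receptors. By edgeR's quasi-likelihood test, 12 of the 31 were past an adjusted p of 0.05, 11 of them higher, where the share over all genes tested was 4.68% (4.09% higher and 0.584% lower). Without the library of PBBI rat 85, 24 of 30 were past it, against 13.7% of all genes. DESeq2 gave 26 (10.1% of all genes) and limma voom with quality weights 30 (31.1%). In 10 of the 31 genes the PBBI values lay all above or all below every sham value, where 4.64% of all genes had such a separation. Since this contrast chose the genes, nothing is read from these counts.

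**Figure D1:**
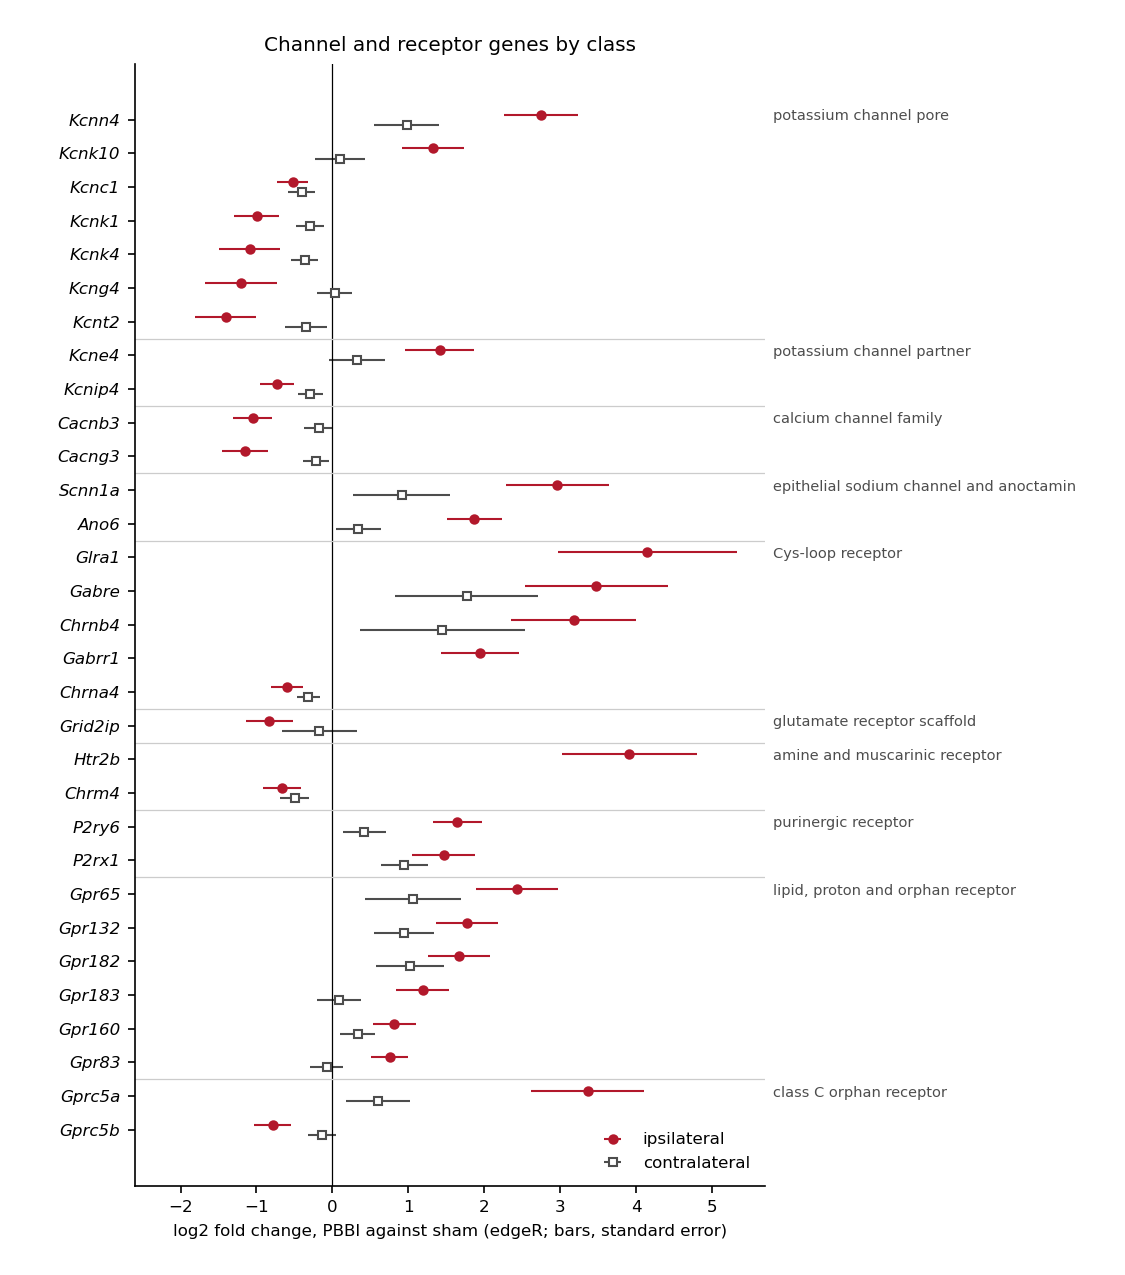
Log2 fold change of PBBI against sham (x axis, points, with the standard error from edgeR as bars) for the 31 genes with an ipsilateral value, grouped by class (y axis), in the ipsilateral hemisphere (filled circles) and the contralateral hemisphere (open squares, 28 genes). Ipsilateral values run from -1.40 for Kcnt2 to 4.15 for Glra1, and contralateral values from -0.50 for Chrm4 to 1.77 for Gabre.

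Among potassium channel pore subunits, Kcnn4 (ENSRNOG00000019440) was the gene furthest above sham. It codes for the calcium-activated channel of intermediate conductance that is known from lymphocytes and microglia. In the sham rats 82, 84, 86, 91 and 94 it was at 0.668, 1.41, 1.46, 0.622 and 2.61 CPM in the ipsilateral cortex. The 6 PBBI rats were between 4.38 and 17.0 CPM, with a median of 7.95. Every PBBI rat was above every sham rat, with the highest value in rat 85, and the log2 fold change was 2.74 (standard error 0.487). Kcnk10, a tandem-pore potassium channel that responds to stretch and lipids, was the other pore subunit that was higher, with a log2 fold change of 1.33, and PBBI rats 83 and 85 were within the range of sham.

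The other 5 pore subunits were lower. Kcnt2 (ENSRNOG00000013312), which codes for a sodium-activated potassium channel of neurons, was at 111, 89.8, 108, 68.3 and 73.3 CPM in the sham rats in the same order. PBBI rats were between 15.5 and 65.0 CPM, with a median of 21.1 and a log2 fold change of -1.40 (standard error 0.401). All PBBI rats were below all sham rats, but rats 83 and 85, at 65.0 and 60.4 CPM, were close to the lowest sham value and the other 4 were at or under 22.5 CPM. Kcnk1, which codes for a weakly rectifying tandem-pore channel of astrocytes and neurons, had the same arrangement, with rats 83 and 85 at 104 and 94.7 CPM, the other 4 PBBI rats at 36.1 to 50.3 and sham rats at 109 to 134. Its log2 fold change was -1.0. Kcnk4, which codes for the mechanically gated channel TRAAK, and Kcng4, a modifier subunit without currents of its own, had log2 fold changes of -1.09 and -1.20. In Kcng4 only 3 PBBI rats were below every sham rat. Kcnc1, a rapidly closing delayed rectifier typical of fast-spiking interneurons, had the smallest difference of the class, -0.52.

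The 2 partners of potassium channels differed in direction. Kcne4 (ENSRNOG00000048478), a membrane subunit that inhibits several voltage-gated potassium channels, was at 0.613, 0.380, 0.679, 0.526 and 0.627 CPM in sham rats and between 0.416 and 2.88 CPM in PBBI rats, with a median of 1.23. Rat 85 alone was within the sham range, and the log2 fold change was 1.41 (standard error 0.454). Kcnip4 (ENSRNOG00000032350), a calcium-binding protein that attaches to the A-type potassium channels of neurons, was at 94.0, 82.9, 82.3, 63.3 and 70.7 CPM in sham rats. In PBBI rats it was between 32.8 and 65.4 CPM, with a median of 43.0 and a log2 fold change of -0.73 (standard error 0.227). Only rat 83 was within the sham range.

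Both calcium channel family genes were lower. Cacng3 (ENSRNOG00000012362), which codes for a transmembrane protein that carries AMPA receptors to the synapse, was at 57.4, 47.9, 34.6, 64.6 and 68.3 CPM in sham rats and between 15.1 and 47.7 CPM in PBBI rats, with a median of 20.6. Rat 83, at 47.7 CPM, was the only PBBI rat inside the range of sham, and the log2 fold change was -1.15 (standard error 0.307). Cacnb3 (ENSRNOG00000054274), the cytoplasmic beta subunit that brings voltage-gated calcium channels to the membrane, was at 127, 164, 166, 263 and 313 CPM in sham rats. PBBI rats were between 63.4 and 117 CPM, with a median of 106 and a log2 fold change of -1.05 (standard error 0.258). The groups did not overlap, although the sham rats themselves spread widely.

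Scnn1a (ENSRNOG00000019368), the alpha subunit of the epithelial sodium channel, entered the set through the prefix of voltage-gated sodium channels, of which the table named none that matched. It was at 0.223, 0.0761, 0.0523, 0.287 and 0.231 CPM in sham rats and between 0.241 and 2.55 CPM in PBBI rats, with a median of 1.61. Its log2 fold change was 2.96 (standard error 0.683), with rats 83 and 85, at 0.355 and 0.241 CPM, close to or within the sham range and the other 4 at 1.52 CPM or more. Ano6 (ENSRNOG00000006995) codes for an anoctamin that moves phospholipids across the membrane when calcium rises. The sham rats were at 5.35, 5.42, 6.79, 11.0 and 8.84 CPM. The PBBI rats were between 10.2 and 39.4 CPM, with a median of 28.7 and a log2 fold change of 1.87 (standard error 0.360), and rat 83 was the only PBBI rat inside the sham range.

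Cys-loop receptor subunits spread widely between PBBI rats. Glra1 (ENSRNOG00000013588), the adult alpha subunit of the glycine receptor, which is best known from the spinal cord and brainstem, was at 0.297, 0.0571, 0, 0.319 and 0.0330 CPM in sham rats. The 6 PBBI rats had 2.57, 0.148, 0.0438, 5.78, 3.73 and 3.30 CPM in rats 81, 83, 85, 88, 90 and 96. Of these, 4 were above every sham rat and rats 83 and 85 were not, with 10 and 2 counts in those libraries against 165 to 400 in the others. The log2 fold change was 4.15 (standard error 1.18). Gabre, the epsilon subunit of GABA-A receptors, was divided in the same way, with rats 83 and 85 at 0.384 and 0.263 CPM, the other 4 at 5.59 to 7.92 CPM and sham rats at 0.105 to 1.05 CPM. Its log2 fold change was 3.48, and 4.22 without sham rat 91.

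Chrnb4, a beta subunit of nicotinic receptors typical of autonomic ganglia and the habenula, had a log2 fold change of 3.18, with rat 85 at 0.0438 CPM below every sham rat and the other 5 PBBI rats above them all. Gabrr1, the rho subunit of a GABA-gated channel known from the retina, had a log2 fold change of 1.95 and was within the sham range only in rat 83, at 5 counts. Chrna4 (ENSRNOG00000011202), the alpha subunit of the main nicotinic receptor of the forebrain, was the one subunit that was lower. It was at 26.6, 20.7, 19, 24.2 and 25.6 CPM in sham rats and between 10.5 and 19.3 CPM in PBBI rats, with a median of 14.6 and a log2 fold change of -0.60 (standard error 0.207). Only rat 83 reached the sham range. Chrnb3, another nicotinic beta subunit, had too few counts for the fit, with at most 10 counts in any ipsilateral PBBI library and 6 to 30 in the sham libraries.

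**Figure D2:**
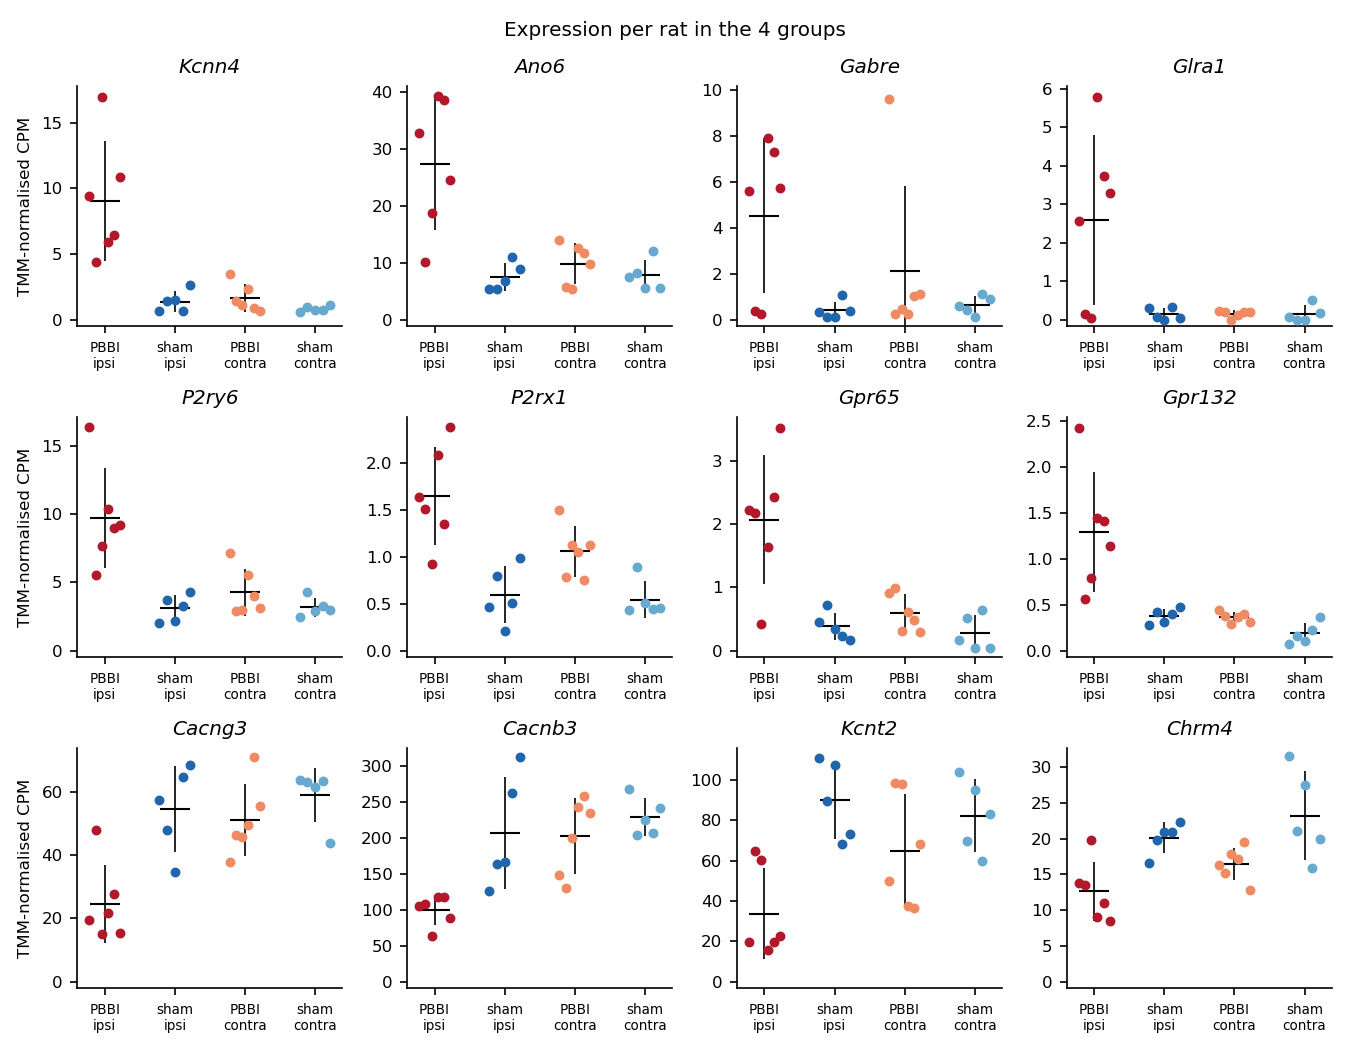
TMM-normalised CPM (y axis, linear) for 12 genes in each rat, by group (x axis: PBBI and sham, ipsilateral and contralateral). Points are rats, the horizontal line is the mean and the vertical line 1 SD, cut off near 0. In Gabre and Glra1 the ipsilateral PBBI rats fall into 2 low and 4 high values, and in Gabre 1 contralateral PBBI rat is at 9.61 CPM.

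Grid2ip (ENSRNOG00000030927) codes for a scaffold that binds the delta glutamate receptor of cerebellar Purkinje cells. It was at 0.947, 1.37, 1.78, 1.12 and 1.17 CPM in sham rats and between 0.444 and 0.934 CPM in PBBI rats, with a median of 0.718. The groups did not overlap but nearly touched, and the log2 fold change was -0.83 (standard error 0.313). No subunit of an AMPA, NMDA, kainate or metabotropic glutamate receptor was named by the table.

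Of the amine and muscarinic receptors, Htr2b was higher and Chrm4 lower. Htr2b (ENSRNOG00000017625), a serotonin receptor coupled to calcium release, is expressed by microglia, blood vessels and the meninges. It was at 0.0186, 0.285, 0, 0.0319 and 0.0660 CPM in sham rats, with at most 15 counts. In PBBI rats it was between 0.311 and 2.77 CPM, with a median of 1.09, at least 21 counts in each library and a log2 fold change of 3.91 (standard error 0.891). Without sham rat 84 it was 5.24. The groups did not overlap, with the lowest PBBI rat (83) close to the highest sham rat (84). Chrm4 (ENSRNOG00000017556), an inhibitory muscarinic acetylcholine receptor of the striatum and cortex, was at 16.6, 19.8, 21.0, 20.9 and 22.3 CPM in sham rats and between 8.5 and 19.8 CPM in PBBI rats, with a median of 12.3. The log2 fold change was -0.66 (standard error 0.245), and rat 85, at 19.8 CPM, was among the sham values.

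Both purinergic receptors were higher. P2ry6 (ENSRNOG00000019270), a receptor for the nucleotide UDP by which microglia are known to be prompted to phagocytosis, was at 2.02, 3.71, 2.20, 3.30 and 4.30 CPM in sham rats. PBBI rats were between 5.55 and 16.4 CPM, with a median of 9.11 and a log2 fold change of 1.65 (standard error 0.324), and no PBBI rat was within the sham range. P2rx1 (ENSRNOG00000017606), an ATP-gated cation channel of smooth muscle, platelets and leukocytes, was at 0.464, 0.799, 0.209, 0.510 and 0.990 CPM in sham rats and between 0.919 and 2.38 CPM in PBBI rats, with a median of 1.57. The log2 fold change was 1.47 (standard error 0.412). Rat 85, the lowest of the PBBI rats, was just below the highest sham rat.

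The receptors for lipids and protons and the orphan receptors were all higher where they could be tested. Gpr65 (ENSRNOG00000003806), which senses extracellular acid and is expressed by lymphoid and myeloid cells, had the highest fold change. It was at 0.445, 0.723, 0.340, 0.239 and 0.165 CPM in sham rats and between 0.416 and 3.52 CPM in PBBI rats, with a median of 2.20. The log2 fold change was 2.43 (standard error 0.538), and rat 85, at 0.416 CPM, was the only PBBI rat within the sham range. Gpr132, a receptor of leukocytes for oxidised fatty acids, and Gpr182, a scavenging chemokine receptor of endothelium, did not overlap between the groups and had log2 fold changes of 1.77 and 1.67. Gpr183, the oxysterol receptor that guides migrating immune cells, had 1.19, and the orphan receptor Gpr160 had 0.82 with no overlap.

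Gpr83 (ENSRNOG00000030318), a receptor expressed by forebrain neurons and regulatory T cells, had the smallest difference of this class. It was at 13.0, 13.0, 14.5, 13.4 and 13.1 CPM in sham rats, a narrow range, and between 14.5 and 33.8 CPM in PBBI rats, with a median of 19.7 and a log2 fold change of 0.75 (standard error 0.246). Gpr33, an orphan receptor, was at 0 counts in all 16 libraries other than ipsilateral PBBI, which allows up to 3 counts in each. Ipsilateral PBBI libraries had 10, 2, 2, 4, 0 and 9 counts in rats 81, 83, 85, 88, 90 and 96. It was seen only there, but at a depth too low for a fold change or a fit.

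Of the class C orphan receptors, Gprc5a and Gprc5b went in opposite directions. Gprc5a (ENSRNOG00000008412), an epithelial receptor induced by retinoic acid, was at 0.687, 0.419, 0.418, 0.351 and 0.396 CPM in sham rats and between 0.325 and 9.13 CPM in PBBI rats, with a median of 4.28. Its log2 fold change was 3.36 (standard error 0.746), and rat 83 was below every sham rat while the other 5 PBBI rats were above them. Gprc5b (ENSRNOG00000016013), which is abundant in brain, was at 134, 112, 80.0, 156 and 143 CPM in sham rats. In PBBI rats it was between 37.8 and 105 CPM, with a median of 73.1 and a log2 fold change of -0.79 (standard error 0.248), and rat 83 was the only PBBI rat above the lowest sham rat. Gprc5d, known from plasma cells and hair follicles, was left out of the fit for low counts. It had 158, 4, 7, 107, 14 and 5 counts in the PBBI rats and at most 2 in any ipsilateral sham library, so that rats 81 and 88 held most of its counts.

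The PBBI rats differed from each other, and the same rats were often nearest to sham. Among the 19 higher genes, the PBBI rat with the lowest CPM was rat 85 in 9, rat 83 in 8 and rat 81 in 2. Among the 12 lower genes, the PBBI rat with the highest CPM was rat 83 in 9, and rats 85, 90 and 96 in 1 each. The median over the 19 genes of the difference in log2 CPM from the sham mean was 0.89 in rat 83 and 0.76 in rat 85, and 1.77 to 2.45 in the other 4 rats. Over the 12 lower genes the median was -0.25 in rat 83 and -0.52 in rat 85, and -0.84 to -1.14 in the others. Rat 85 was not near sham throughout. It was the PBBI rat furthest from sham in 5 of the 12 lower genes: Kcnk4, Kcng4, Gprc5b, Cacng3 and Cacnb3. Among the 19 higher genes it was furthest in 2, Kcnn4 and Gpr160. The library of rat 83 did not stand apart on the first principal component.

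**Figure D3:**
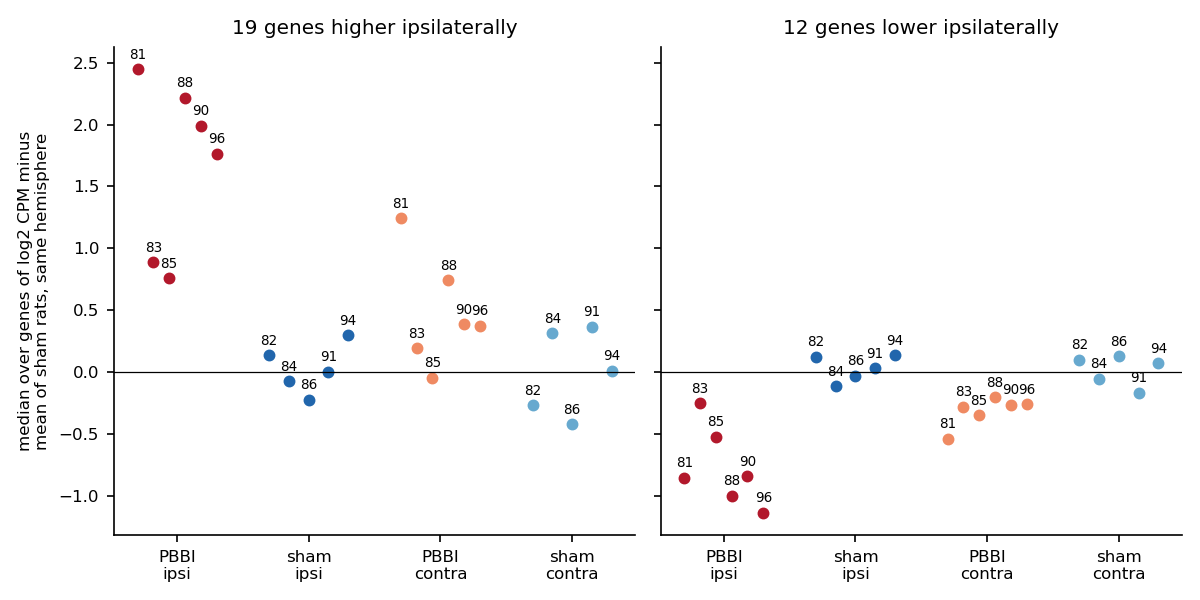
For each rat (number beside the point), the median over genes of log2 CPM minus the mean of the sham rats of the same hemisphere (y axis, log2 units), by group (x axis), for the 19 genes that were higher and the 12 that were lower ipsilaterally. In the ipsilateral PBBI group, rats 83 and 85 lie at 0.89 and 0.76 in the left panel and the other 4 at 1.77 to 2.45. In the contralateral PBBI group all 6 rats lie below 0 in the right panel.

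Levels between genes were compared as CPM per kilobase of gene length in the contralateral sham samples. The genes that were higher ipsilaterally were at 0.0242 CPM per kilobase for Gabrr1 to 4.03 for Gpr83, and the lower genes at 0.414 for Grid2ip to 90.7 for Cacnb3. The median over all genes tested was 5.66 CPM per kilobase. Both the direction and the filter on low counts came from the ipsilateral samples. Glra1, Htr2b and Gabrr1 had enough counts ipsilaterally but not contralaterally, and Chrnb3, with a mean of 0.0473 CPM in ipsilateral PBBI and 0.258 CPM in ipsilateral sham samples, was left out by the filter. Level and direction are therefore not independent here, and nothing is read from their relation.

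**Figure D4:**
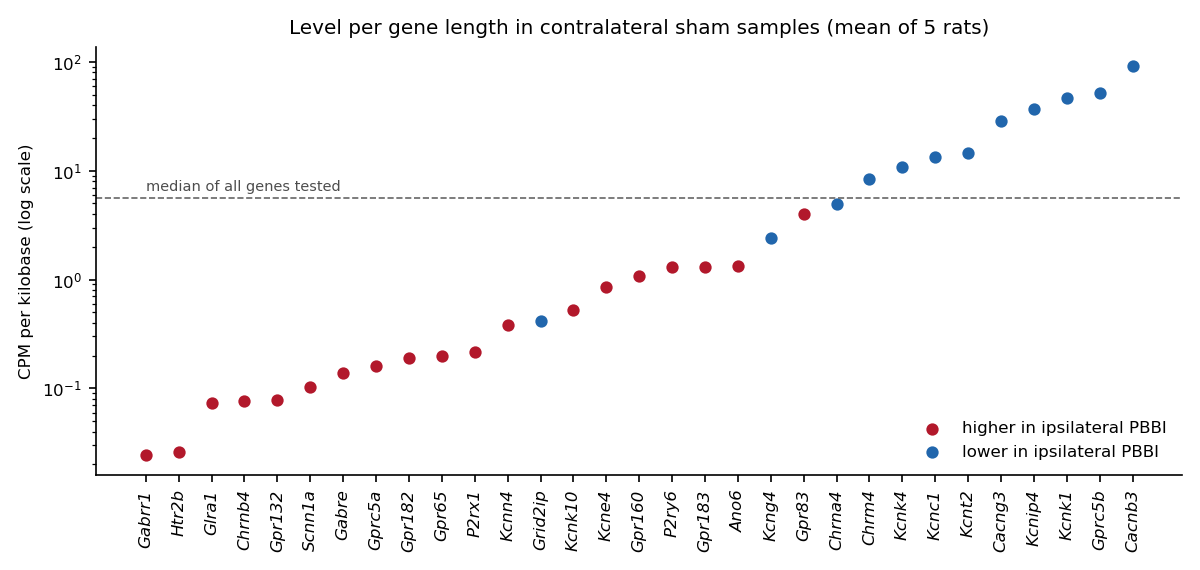
Mean level per kilobase of gene length in the 5 contralateral sham samples (y axis, CPM per kilobase, log scale) for the 31 genes in order of level (x axis). Genes higher in ipsilateral PBBI are red and lower ones blue. Levels run from 0.0242 for Gabrr1 to 90.7 for Cacnb3, and the dashed line is the median of all genes tested, 5.66. The filter that let genes in used the ipsilateral samples, so level and colour are not independent.

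The contralateral hemisphere gave the test whose samples did not choose the genes, since its 11 samples are others. They come from the same rats, and the 2 samples of a rat correlated in their deviations from the group means (r between 0.246 and 0.758). A difference between rats that helped to choose a gene can therefore recur here. How much this adds to the counts below was not tested. The comparison asks whether the injury moved these genes in the hemisphere opposite to it. No gene passed: 0 of the 28 tested had an adjusted p of 0.05 or less by edgeR, as did 0% of the 15907 genes tested, and DESeq2 and voom also called 0 of the 28 (0% and 0.00629% of all genes). At an unadjusted p under 0.05 there were 6 of 28, or 21.4%, against 2.3% of all genes and 9.65% of the other genes of the table. DESeq2 gave 8 and voom 7, where these tools gave 2.93% and 13.3% of all genes. The 6 were P2rx1, Gpr132, Kcnn4 and Gpr182, which were higher, and Chrm4 and Kcnc1, which were lower. Without sham rat 86 the number was 2, and without PBBI rat 81 it was 3. The contralateral sample titles of PBBI rat 81 and sham rat 82 carry the letters PFC, unlike the others. Whether their tissue differed was not tested. Cell type markers moved in the same comparison: 3 of 9 myeloid markers, Gfap and Vim of the 4 astrocyte markers, and Opalin, with a log2 fold change of -0.70, had an unadjusted p under 0.05. The summed astrocyte markers were at 628 to 4505 CPM in contralateral PBBI and at 574 to 1315 CPM in contralateral sham samples, and the summed myeloid markers at 353 to 459 and 258 to 379 CPM. Their part in the 6 genes was not tested. In none of the 28 genes were the groups without overlap, which was seen in 0.157% of all genes.

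P2rx1 had the smallest p. It was at 0.428, 0.887, 0.510, 0.439 and 0.457 CPM in the contralateral cortex of sham rats 82, 84, 86, 91 and 94 and between 0.756 and 1.5 CPM in PBBI rats, with a median of 1.09. Sham rat 84 overlapped with the PBBI rats, and 4 of the 6 PBBI rats were above every sham rat. Mean levels were 1.06 ± 0.273 (SD, n = 6) and 0.544 ± 0.194 CPM (SD, n = 5), the log2 fold change was 0.95 (standard error 0.308), and an exact permutation test (2-sided, every split of the 11 rats) gave p = 0.0108. In edgeR the unadjusted p was 0.00829 and the adjusted p was 1.00. The unadjusted p was under 0.05 in all 11 fits that left out a rat.

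Chrm4 was at 31.5, 21.1, 27.5, 15.9 and 20.0 CPM in the contralateral cortex of sham rats and between 12.8 and 19.5 CPM in PBBI rats, with a median of 16.7. The spread of the sham rats covered that of most PBBI rats, and 2 PBBI rats were below every sham rat. The log2 fold change was -0.50 (standard error 0.190), with an unadjusted p of 0.0209 and an adjusted p of 1.00 by edgeR, and p = 0.0281 by the exact permutation test. Gpr132 was at 0.0745, 0.164, 0.109, 0.228 and 0.365 CPM in sham rats and between 0.294 and 0.440 CPM in PBBI rats, with a median of 0.368. Only sham rat 94 reached the range of PBBI, and the log2 fold change was 0.95 (standard error 0.399), with an unadjusted p of 0.0332 and an adjusted p of 1.00 by edgeR and p = 0.0108 by the exact permutation test. The permutation test can go no lower than 0.00216 in this design. Chrm4 had an unadjusted p under 0.05 in 9 of the 11 fits that left out a rat and Gpr132 in 6.

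The other 3 genes were less even between rats. Kcnn4, with a log2 fold change of 0.98 (standard error 0.424), was at 3.44 and 2.34 CPM in PBBI rats 81 and 88 and at 0.627 to 1.41 CPM in the others, against 0.596 to 1.14 CPM in sham rats. Gpr182 had 1.02 (standard error 0.452), and rats 88 and 90 were inside the sham range. For Kcnc1 it was -0.40 (standard error 0.176), and PBBI rat 81 was inside the sham range while the other 5 were below every sham rat. Its contralateral difference was close in size to its ipsilateral one, -0.52. The exact permutation test gave p = 0.106 for Kcnn4, 0.0628 for Gpr182 and 0.0346 for Kcnc1. Gabre had the largest contralateral fold change, 1.77 on the log2 scale, and it rested on PBBI rat 81 at 9.61 CPM. The other PBBI rats were at 0.243 to 1.10 CPM, like the sham rats at 0.109 to 1.11, and without rat 81 the log2 fold change was -0.01. Glra1, Htr2b and Gabrr1, 3 of the genes that stood out ipsilaterally, had too few counts contralaterally to enter the fit, with at most 14 counts in any PBBI library there.

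The contralateral differences went in the ipsilateral direction in 26 of the 28 genes, or 92.9%. The share was 80.6% for the other genes of the table tested in both and 60.5% for all genes tested in both. The exceptions were Gpr83 and Kcng4, with contralateral log2 fold changes of -0.08 and 0.03. The 2 comparisons have no sample in common, but each rat gave a sample to both, so the 2 directions are not independent. The other named genes were chosen in the same way. Leaving out a rat gave between 23 of 27, without PBBI rat 81, and 27 of 27 or 28. The differences were smaller than on the injured side for every gene tested in both. The median log2 fold change was 0.09 over the 28 genes against -0.01 over all genes. It is a signed median in which higher and lower genes offset each other, and not a measure of size. Choosing genes through their ipsilateral differences favours smaller ones contralaterally, so nothing is read from the smaller sizes. PBBI rats again differed from each other. Over the 19 higher genes the median difference from sham was 1.24 in PBBI rat 81 and 0.74 in rat 88, and -0.05 to 0.39 in the other 4, while sham rats were between -0.42 and 0.37. Over the 12 lower genes all 6 PBBI rats were below 0, from -0.21 to -0.54, and sham rats were between -0.17 and 0.13.

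**Figure D5:**
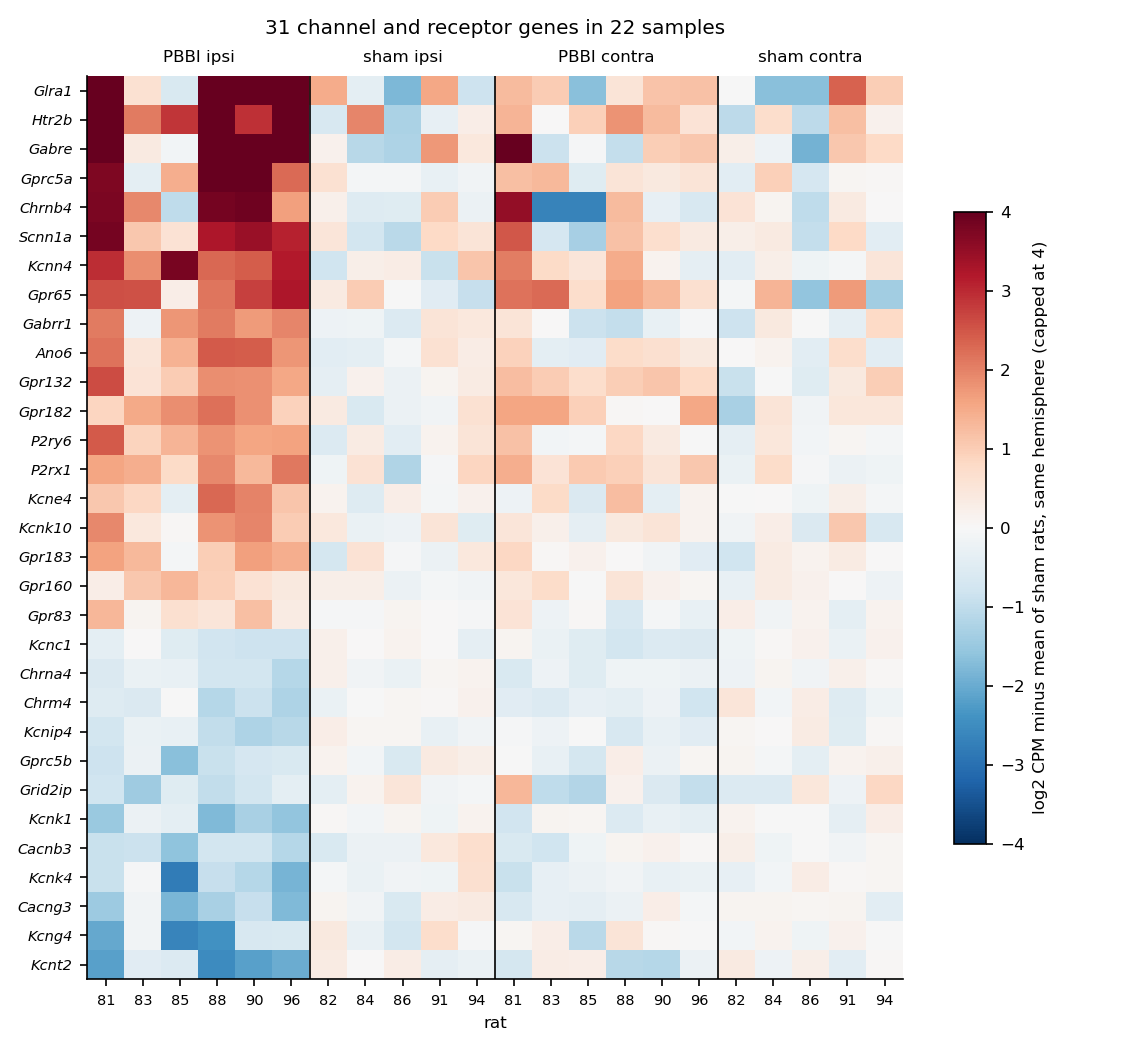
Log2 CPM minus the mean of the sham rats of the same hemisphere (colour, capped at 4 in each direction) for the 31 genes (rows, by ipsilateral fold change) in each rat (columns, by group). Red blocks in the upper rows are strongest in ipsilateral PBBI rats 81, 88, 90 and 96 and paler in rats 83 and 85. In contralateral PBBI, Gabre and Chrnb4 stand out in rat 81.

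Whether the injury effect differed between the hemispheres was compared over all 22 samples. These comparisons contain the ipsilateral samples that chose the genes, so they are described without reading a test from them. The interaction of injury and hemisphere passed the adjusted threshold of edgeR in 0 of the 31 genes, against 0.326% of all genes, and in 15 of 31 at an unadjusted p under 0.05, against 9.89%. With the rat as a block, which pairs the samples of each rat, 5 of 31 passed, against 4.27% of all genes. The 5 were Ano6, P2ry6 and Scnn1a, where the difference of PBBI from sham was higher ipsilaterally, and Kcnt2 and Kcnk1, where it was lower. With the block and without rat 85 the number was 7, against 8.23% of all genes. Within PBBI rats, 8 of 30 genes differed between the hemispheres past the threshold, 6 higher and 2 lower ipsilaterally, against 3.56% of all genes (2.97% and 0.588%). With the block there were 16, 10 higher and 6 lower, against 10.3% (6.68% and 3.62%), and 22 without rat 85, against 20.9%. Within sham rats 0 of 27 differed, against 0% of all genes, with the block or without, and 1 had an unadjusted p under 0.05 (4 with the block), against 0.298% and 1.51%.

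Gpr182 had a log2 difference of 0.21 (standard error 0.396) between the ipsilateral and contralateral hemispheres of PBBI rats, which does not show that they were alike. Its mean level was 0.840 ± 0.314 CPM (SD, n = 6) ipsilaterally and 0.736 ± 0.346 (SD, n = 6) contralaterally in PBBI rats, and 0.263 ± 0.0993 (SD, n = 5) and 0.358 ± 0.157 (SD, n = 5) in sham rats. P2rx1 was intermediate contralaterally, with 1.65 ± 0.523 CPM ipsilaterally and 1.06 ± 0.273 contralaterally in PBBI rats (SD, n = 6). Gpr132, in contrast, was at 1.30 ± 0.654 CPM ipsilaterally and 0.363 ± 0.0536 contralaterally in PBBI rats (SD, n = 6), and its contralateral PBBI level was near that of ipsilateral sham rats, 0.377 ± 0.0809 (SD, n = 5). The contralateral sham level, 0.188 ± 0.115 CPM (SD, n = 5), was the lowest of its 4 groups.

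The threshold by which the table was made was near some of these genes. In the present counts and with DESeq2, the tool of the study's methods, 26 of the 31 genes passed an adjusted p of 0.05, against 10.1% of all genes, and 5 did not. Just inside it were Gpr83, Kcnip4 and Chrna4, with DESeq2 log2 fold changes of 0.73, -0.68 and -0.56. Outside it were Grid2ip, Kcnk4, Kcng4, Kcnc1 and Chrm4, with -0.76, -0.95, -1.0, -0.49 and -0.61. Their adjusted p by DESeq2 was 0.0518, 0.0656, 0.0971, 0.104 and 0.104, so only Grid2ip was just outside. The TRP channel genes of the table are not counted here, since the pattern for symbols asks for a further letter or digit after their number. Log2 fold changes of 4 of them are given for completeness. Trpv4, an osmosensitive and heat-sensitive cation channel, had 1.60 ipsilaterally and 1.29 contralaterally. Trpm1, known from retinal bipolar cells, had 1.51 and 0.86. Trpc1, a channel opened downstream of phospholipase C, had -0.56 and -0.17. Trpm4, a calcium-activated cation channel, had -0.88 and -0.51.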

How the data were processed

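Cortical RNA of 11 rats, with 1 library per hemisphere and rat, was analysed from the counts per gene. The authors aligned the reads with STAR 2.4.2a, counted them on genes with featureCounts 1.4.3-p1 and deposited raw counts without normalisation. The genome was Ensembl Rnor 6.0. Groups follow the labels for treatment, hemisphere and animal. The sample titles carry the letters PFC for both libraries of PBBI rat 81 and the contralateral library of sham rat 82. Those of all other libraries carry CC or CI. Whether the dissected tissue differed between these was not tested. Rats were operated in weekly groups, which were not entered as a term, since no week was matched to an animal. Symbols came from the identifier and name columns of a supplementary table, whose fold changes and p-values were not used. The genes, their classes and the marker lists were chosen with earlier results of these data known.

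For each hemisphere, PBBI and sham samples were fitted in edgeR 4.0.16 (R 4.3.3; quasi-likelihood test), with TMM normalisation, the filter filterByExpr and Benjamini-Hochberg adjustment over all genes tested (threshold 0.05). The standard error was the log2 fold change divided by the square root of F. A prior count of 2 was used for log2 CPM. Single genes were tested contralaterally with a 2-sided exact permutation test over every split of the rats. Alternatives were DESeq2 1.42.0 with its normal prior, limma 3.58.1 voom with quality weights, RLE size factors, no filter, each rat left out, and the rat as a block. The 2 samples of a rat correlated in their deviations from the group means (r between 0.246 and 0.758 in the 11 rats). Whether this comes from the animal or from shared handling was not tested.

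All genes are named, with values per rat for the highest and lowest ipsilateral fold change of each class and for the 3 smallest contralateral p. Other genes whose rats are described were chosen after their values were seen. On simulated counts, the contralateral edgeR fit over 15907 genes recovered 44 of 100 genes changed by 1 and 92 of 100 changed by 2 on the log2 scale, and the ipsilateral fit over 16104 genes 5 and 62. False calls were 12 among 148 calls contralaterally and 2 among 69 ipsilaterally. The changed genes were drawn only from those with a mean of at least 1 CPM. Genes below that level, such as Gpr132 and Gpr182 contralaterally, are not covered by this recovery. Overlaps with antisense genes or near-identical copies were not checked, since no annotation of Rnor 6.0 was used here.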

Additional observations from a re-analysis of the deposited data

Results flagged for a closer look

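Among 133 groups of 5 or 6 rats, 10 held 1 rat far from the others by Dixon's test, and chance alone flags about 1 in 20. Rat 85 was the lowest of its group in 3: Gpr65 in ipsilateral PBBI (0.416 CPM, the others 1.63 to 3.52), Kcng4 in contralateral PBBI (4.55 CPM, the others 9.57 to 13.9) and Glra1 in contralateral PBBI (0 CPM, the others 0.122 to 0.228). Rat 83 was lowest in Gabrr1 in ipsilateral PBBI (0.0739 CPM and 5 counts, the others 0.375 to 0.498), and rat 81 in Kcnk4 in contralateral PBBI (6.92 CPM, the others 10.3 to 11.6). In the sham groups, rat 82 was low in Gpr183 contralaterally (1.10 CPM, the others 1.94 to 2.41) and high in Gprc5a ipsilaterally (0.687 CPM, the others 0.351 to 0.419). Rat 94 was low in Cacng3 contralaterally (43.9 CPM, the others 61.5 to 63.6) and high in Kcnk4 ipsilaterally (16.9 CPM, the others 9.15 to 10.4). Rat 84 was high in P2rx1 contralaterally (0.887 CPM, the others 0.428 to 0.510).

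For 5 genes the injury effect differed between the hemispheres past the adjusted threshold of edgeR with the rat as a block. The difference of the log2 fold changes, ipsilateral minus contralateral, was 2.29 for Scnn1a (standard error 0.480), 1.49 for Ano6 (0.270), 1.27 for P2ry6 (0.233), -1.19 for Kcnt2 (0.201) and -0.82 for Kcnk1 (0.189). The ipsilateral samples chose these genes, so the differences are given as values only.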

How the results depend on the processing

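Ipsilaterally the direction of all 31 genes held in every setting run, and leaving out 1 rat moved a fold change by over 1.5 times only for Htr2b (log2 3.51 to 5.24) and Gabre (3.24 to 4.22), but the number past the threshold did not. It was 12 by edgeR, 26 by DESeq2, 30 by voom and 28 by DESeq2 without rat 85, which was added after the data were seen. Leaving out 1 rat gave 3 (sham 86 or 91) to 24 (PBBI 85). It was 21 without PBBI 83, 4 without PBBI 81, PBBI 88, sham 82 or sham 94, and 5 without PBBI 90, PBBI 96 or sham 84. Kcnn4, Ano6 and P2ry6 passed in all 11 of these fits. Contralaterally 0 of 28 passed in every setting. The number at an unadjusted p under 0.05 was 2 (without sham 86) to 7 (without sham 91), and 3 without PBBI 81. The median log2 fold change was -0.01 to 0.25 over these fits. Contralateral directions reversed under voom for Chrnb4 (-0.174), Gpr183 (-0.104) and Grid2ip (0.0187). With 1 rat left out they reversed in some fits for Kcnk10 (-0.0353 to 0.485), Kcng4 (-0.0892 to 0.177), Gpr183 (-0.117 to 0.185), Gpr83 (-0.236 to 0.0171), Grid2ip (-0.763 to 0.0983) and Gabre (-0.014 to 2.11). With paired samples, the rat entering as a block, the interaction passed in 5 genes instead of 0, and in 7 without rat 85 (added after the data were seen). Unpaired, leaving out 1 rat gave 0 to 3, with 3 without PBBI 83. Within PBBI rats the block gave 16 genes instead of 8, and 22 without rat 85 (added likewise). Leaving out 1 rat gave 0 (PBBI 88, 90 or 96) to 11 (PBBI 85), and 3 without PBBI 81. The block changed no call within sham rats. The causes were not tested. Depth limits Gpr33, Gprc5d and Chrnb3 in both hemispheres, and Glra1, Htr2b and Gabrr1 contralaterally.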
